A study of Mus musculus with 6 samples.

Results

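PIWI-interacting RNAs (piRNAs) are short RNAs that guide PIWI proteins to transposon and other transcripts in germ cells. Much of the pathway works in nuage, the granules beside the nucleus that include the intermitochondrial cement of spermatocytes and the chromatoid body of round spermatids. Loss of most of these genes in mice stops spermatogenesis and makes males sterile. The set comprised 10 genes picked for their roles in this pathway, namely Piwil1, Piwil2, Piwil4, Ddx4, Tdrd1, Tdrd5, Tdrd6, Tdrd7, Mael and Mov10l1. All probe sets whose platform symbol was exactly one of these names were taken, which gave 11 probe sets for 9 genes, out of 18193 genes with a probe set of their own. Tdrd6 had no probe set under its symbol and is not analysed here.

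The study compared whole testes of 3 wild-type mice (WT) with those of 3 Alkbh1-/- mice (KO), all 12 weeks old and on a background that the source label spells C57/BL6 and the genotype field C53/BL6. Alkbh1 encodes an AlkB-type dioxygenase. Total RNA of each mouse was read on 1 Affymetrix mouse array, and the deposited table gives 1 normalized log2 expression value per probe set, a group of short probes against a stretch of transcript. The labels and the design text do not say which part of Alkbh1 was removed, or whether in every cell.

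The array precision was set by the 3 mice per group. The standard error of a KO minus WT difference had a median of 0.08 log2 over the 27022 probe sets tested, which were the upper 60% by mean level without controls. The Alkbh1 probe set 1434660_at checked the labels, with 8.43, 8.65 and 8.72 log2 in WT and 5.76, 5.30 and 5.20 in KO. The other Alkbh1 probe set, 1438681_at, differed less, by −1.02 ± 0.12 log2 (0.49-fold of WT), and did not pass (limma adjusted p = 0.070). Its groups did not overlap. The tissue label was checked against spermatid and spermatocyte markers, which were on average at high levels on every array. The 12 spermatid markers averaged 13.53 to 13.62 log2 in the WT arrays and 13.60 to 13.63 in the KO arrays, and the 10 spermatocyte markers averaged 11.50 to 11.73 and 11.63 to 11.70. The 11 tested spermatogonial markers averaged lower, 8.14 to 8.32 in WT and 8.15 to 8.22 in KO. WT replicate 1 stood apart among the arrays at high signal. Its 95th percentile of log2 values was 11.43, against 11.53 to 11.55 on the other 5 arrays.

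No genotype difference was called for the piRNA pathway genes that could be tested, which does not show that their levels were equal. Of the 8 probe sets that could be tested, each for a different gene, 0 passed (limma, Benjamini-Hochberg adjusted p under 0.05), where 0.0407% of all tested probe sets did. Without adjustment 0 of 8 had a p under 0.05, against 5.11% of all. The unmoderated test called 0 of all 27022 probe sets, those of Alkbh1 included, and so says nothing about these genes or the other lists of the pathway. In none of the 8 did the 3 KO values lie apart from the 3 WT values, a trait of 11% of all tested probe sets. The differences ran from −0.09 to 0.07 log2 with a median of 0.04 (6 higher and 2 lower in KO), and the median over all 13897 genes was 0.01 (55.9% higher). With quantile normalization the median of the 8 was −0.0095, so that its sign depended on the scaling. The widest 95% interval was that of Tdrd1, from −0.34 to 0.16, and the other 7 lay between −0.15 and 0.24. Levels of whole testes are those of a mixture, so that fewer cells of a type and less RNA per cell cannot be told apart.

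**Figure D1:**
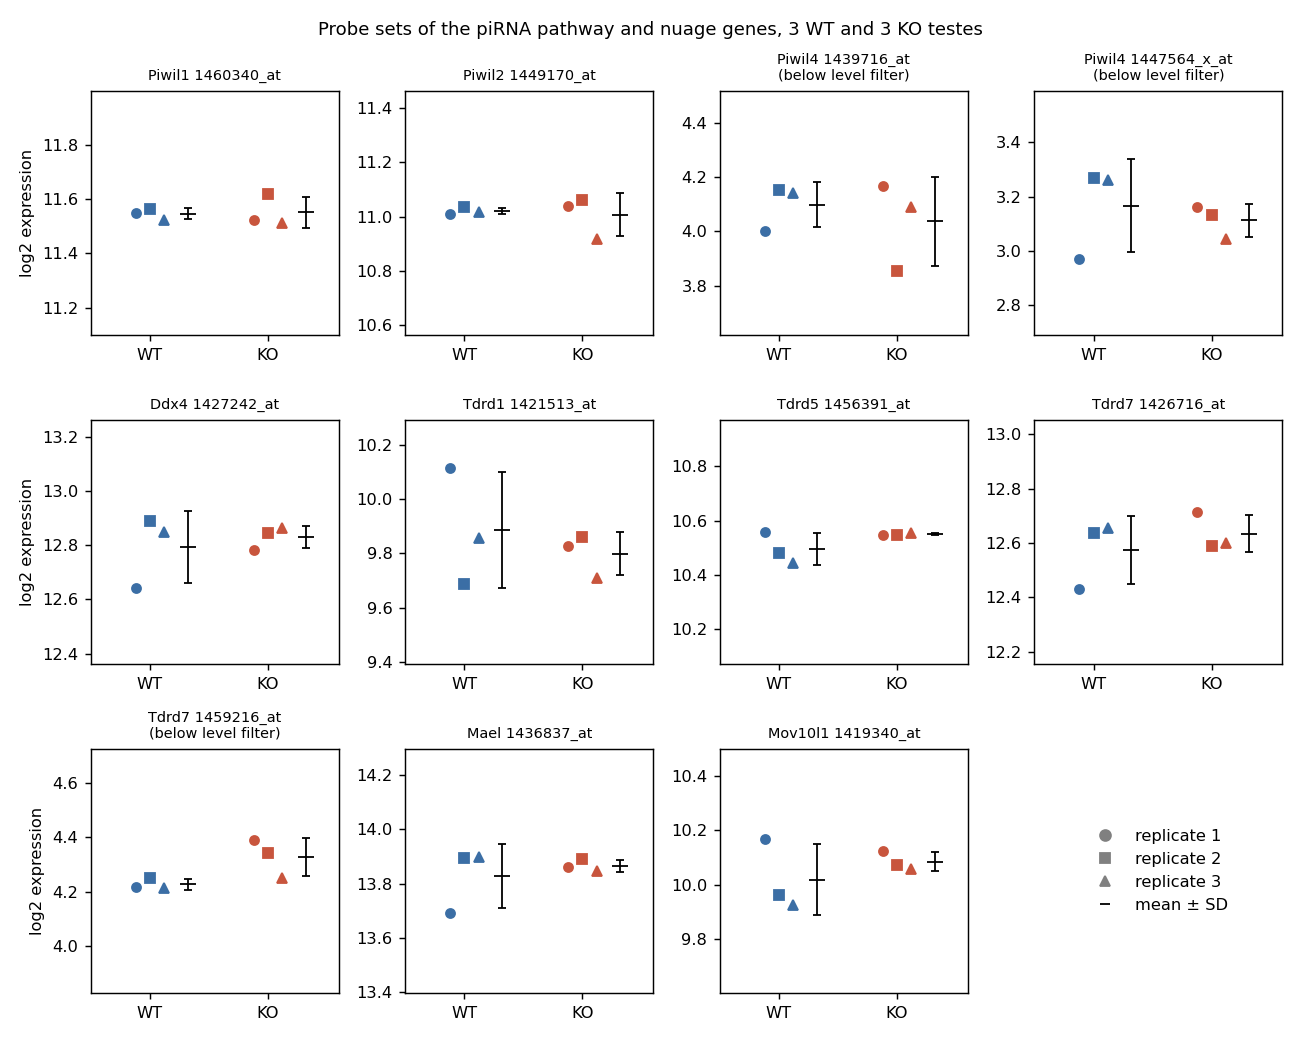
Log2 expression (vertical axis, the same span of values in each panel) of the 11 probe sets in 3 WT and 3 KO testes (horizontal axis), with symbols for the replicate number and a bar for mean ± SD (n = 3). WT and KO values overlap in every panel (for the second Tdrd7 probe set they meet at 1 equal value), and Piwil4 and the second Tdrd7 probe set read below the level filter.

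The PIWI proteins bind the piRNAs and, in several cases, cut their targets. Piwil1 (MIWI), which acts in pachytene spermatocytes and round spermatids, read 11.55, 11.56 and 11.52 log2 in WT and 11.52, 11.62 and 11.51 in KO. The KO values lay around the WT values, with the highest and the lowest of the 6 both in KO. The difference was 0.01 ± 0.05 log2 (SE; 95% interval −0.11 to 0.12; limma adjusted p = 0.999), so that the interval ended at 1.09-fold higher and 0.924-fold of WT. Piwil2 (MILI), which is present from fetal germ cells through spermatocytes, read 11.01, 11.03 and 11.02 in WT and 11.04, 11.06 and 10.92 in KO. KO replicate 3 was the lowest array and the other 2 KO arrays were above all WT arrays. The difference was −0.01 ± 0.06 log2 (95% interval −0.15 to 0.12; limma adjusted p = 0.998). The WT values of these genes were close together, with an SD of 0.021 for Piwil1 and 0.012 for Piwil2.

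Piwil4 (MIWI2) works in the nuclei of fetal germ cells, where it directs DNA methylation of transposons, and in the adult it is known from a minority of spermatogonia. Its probe set 1439716_at read 4.003, 4.15 and 4.14 log2 in WT and 4.17, 3.85 and 4.09 in KO. The other, 1447564_x_at, whose suffix marks probes that can bind other transcripts, read 2.97, 3.27 and 3.26 in WT and 3.16, 3.13 and 3.04 in KO. Both lay under the level filter of 6.02 and were not tested. The lowest value in the whole table was 2.61, so that Piwil4 had no measurable comparison here, and its groups overlapped at both probe sets.

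Ddx4 (VASA, MVH) is the RNA helicase of nuage and a standard germ cell marker. It read 12.64, 12.89 and 12.85 log2 in WT and 12.78, 12.84 and 12.86 in KO. WT replicate 1 was the lowest of the 6 and the rest lay together. The difference was 0.04 ± 0.07 log2 (95% interval −0.13 to 0.20; limma adjusted p = 0.994). Without WT replicate 1 it was −0.04 ± 0.04 (limma adjusted p = 0.724). Mov10l1, the helicase that starts the processing of piRNA precursors, read 10.17, 9.96 and 9.92 in WT and 10.12, 10.07 and 10.06 in KO. WT replicate 1 was here the highest, and the other 2 WT arrays were below all KO arrays. The difference of 0.07 ± 0.08 log2 (95% interval −0.11 to 0.24; limma adjusted p = 0.993) was the highest of the 8. It became 0.14 ± 0.05 without WT replicate 1 (limma adjusted p = 0.447), again short of the threshold.

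The Tudor domain proteins bind methylated arginines of the PIWI proteins and hold nuage together. Tdrd1, a partner of Piwil2 in the intermitochondrial cement, read 10.11, 9.69 and 9.85 log2 in WT and 9.83, 9.86 and 9.71 in KO. WT held both the highest and the lowest value, and its SD of 0.21 was the largest among the tested members. The difference was −0.09 ± 0.11 (limma adjusted p = 0.993), the lowest of the 8, and turned to 0.03 ± 0.08 without WT replicate 1 (limma adjusted p = 0.912). Tdrd5, needed for the chromatoid body and for pachytene piRNA production, read 10.56, 10.48 and 10.45 in WT and 10.55, 10.55 and 10.55 in KO. The KO values differed by an SD of 0.0036 and fell inside the WT range. The difference was 0.05 ± 0.05 log2 (95% interval −0.07 to 0.18; limma adjusted p = 0.993). It was 0.09 ± 0.05 without WT replicate 1 (limma adjusted p = 0.540) and 0.03 ± 0.06 without WT replicate 3 (limma adjusted p = 0.998).

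Tdrd7, which takes part in chromatoid body assembly, had 2 probe sets that read very different signals. Probe set 1426716_at gave 12.43, 12.64 and 12.66 log2 in WT and 12.71, 12.59 and 12.60 in KO. WT replicate 1 was the lowest and KO replicate 1 the highest. The difference was 0.06 ± 0.07 (95% interval −0.11 to 0.23; limma adjusted p = 0.993) and −0.01 ± 0.05 without WT replicate 1 (limma adjusted p = 0.950). Probe set 1459216_at gave 4.22, 4.25 and 4.21 in WT and 4.39, 4.34 and 4.25 in KO, under the level filter and without a test. Its groups met at 1 equal value, in WT replicate 2 and KO replicate 3. Mael, a nuage protein of transposon silencing and piRNA precursor handling, read 13.69, 13.90 and 13.90 in WT and 13.86, 13.89 and 13.85 in KO. WT replicate 1 was again lowest, and the other 2 WT arrays were above all KO arrays. Its difference was 0.04 ± 0.06 log2 (95% interval −0.11 to 0.18; limma adjusted p = 0.993), and −0.03 ± 0.03 without WT replicate 1 (limma adjusted p = 0.707).

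**Figure D2:**
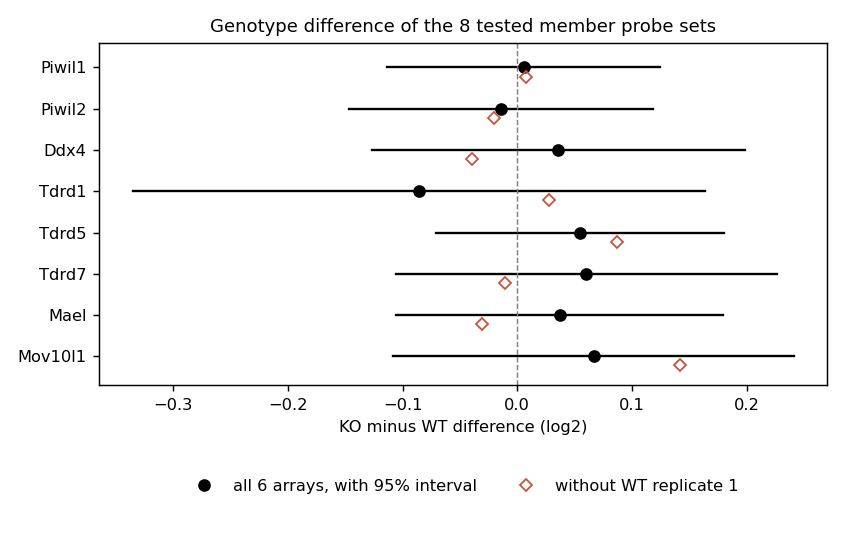
KO minus WT difference in log2 (horizontal axis) of the 8 tested probe sets (vertical axis), as filled circles with 95% intervals from limma over 6 arrays, and as open diamonds without WT replicate 1. Every interval includes 0, and Ddx4, Tdrd1, Tdrd7 and Mael change sign when that array is left out.

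WT replicate 1 held the extreme value in 6 of the 8 tested genes. It was lowest for Ddx4, Tdrd7 and Mael, by 0.20, 0.21 and 0.18 log2 under the mean of the other 5 arrays. It was highest for Tdrd1, Tdrd5 and Mov10l1, where it read 0.32, 0.04 and 0.14 above that mean. For Piwil1 and Piwil2 it was within 0.01 of that mean. How often this array was the extreme one over all tested probe sets is not given here. Over all 1482 tested probe sets with a mean of at least 12 log2, as Ddx4, Tdrd7 and Mael have, the median deviation of that array from the mean of all 6 was −0.10, against 0.01 to 0.03 on the other arrays. Over the 6326 with a mean from 9 to 11, the span that holds Tdrd1, Tdrd5 and Mov10l1, it was −0.05, the opposite direction to these genes. The part of this array's signal in the genotype differences was not tested beyond leaving it out. Without it the median difference of the 8 genes was −0.002 in place of 0.04. The values of Tdrd5, Mael and Mov10l1 then no longer overlapped between groups, 3 of 8 where 28.9% of all tested probe sets had that trait.

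**Figure D3:**
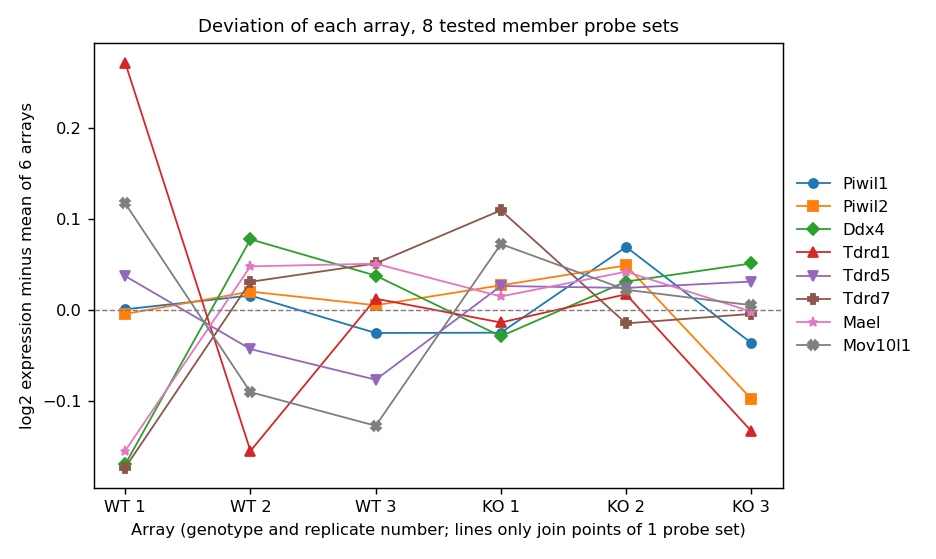
Deviation of each array from the mean of the 6 arrays in log2 (vertical axis) for the 8 tested probe sets, by array (horizontal axis). WT replicate 1 spreads the genes most, with Tdrd1 and Mov10l1 high and Ddx4, Tdrd7 and Mael low.

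Other factors of piRNA production and silencing also gave no call. Of 23 genes listed, 20 had probe sets, and 0 of the 29 tested probe sets passed in either direction (limma adjusted p of at least 0.993). Without adjustment 0 of 29 had a p under 0.05. By gene, 10 were higher and 10 lower in KO, with a median of 0.01 log2 (−0.0054 with quantile normalization). The smallest p values belonged to Tdrd12, a Tudor protein of secondary piRNA production, Prmt5, the enzyme that methylates PIWI arginines, and Tex15, which acts with Piwil4. Tdrd12 read 9.87, 10.07 and 10.01 in WT and 9.88, 9.83 and 9.84 in KO, a difference of −0.13 ± 0.07 (limma adjusted p = 0.993). Prmt5 stood at −0.20 ± 0.10 and Tex15 at 0.11 ± 0.06 (limma adjusted p = 0.993 for both). Tex15 was among the 2 of 29 probe sets whose groups did not overlap, against 11% of all, with 11.16, 11.16 and 11.08 in WT and 11.33, 11.24 and 11.17 in KO.

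A further 20 genes of Tudor proteins and the chromatoid body had 46 tested probe sets for 19 genes. Of these 0 passed (limma adjusted p of at least 0.835). Without adjustment 3 had a p under 0.05, which is 3 of 46 where 5.11% of all did, and 6 of 46 had no overlap between the groups, where 11% of all had none. By gene, 14 of 19 were higher in KO, with a median of 0.04 log2 (12 of 19 with quantile normalization). Akap1, which anchors protein kinase A at mitochondria and carries a Tudor domain, read 9.18, 8.81 and 8.95 at probe set 1449019_at in WT and 9.47, 9.50 and 9.26 in KO. All KO values were above all WT values, by 0.43 ± 0.11 log2 on average (95% interval 0.18 to 0.68; limma adjusted p = 0.835). The other Akap1 probe set, 1418279_a_at, differed by −0.01 ± 0.04, so the probe sets of this gene disagreed. Ago2, the Argonaute of the small interfering and microRNA pathways, differed by 0.14 ± 0.06 at 1435636_at (limma adjusted p = 0.965), while its 3 other probe sets stood at 0.14, 0.08 and 0.11. Smndc1, a splicing factor with a Tudor domain, had 0.16 ± 0.07 at 1452999_at (limma adjusted p = 0.974) and −0.05 and 0.01 at the remaining 2.

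**Figure D4:**
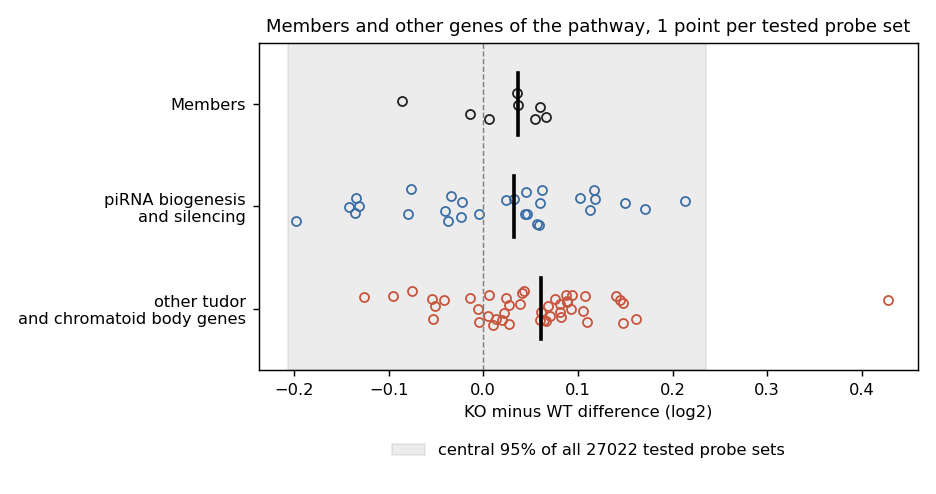
KO minus WT difference in log2 (horizontal axis) of each tested probe set of the members, of the list of piRNA biogenesis and silencing and of the list of other Tudor and chromatoid body genes; black bars are medians over probe sets and the grey band holds the central 95% of all 27022 tested probe sets, from −0.21 to 0.24. All 8 members lie inside the band, and 1 probe set of Akap1, at 0.43, lies far beyond its upper end.

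Mybl1 encodes A-MYB, the transcription factor that switches on pachytene piRNA clusters and several piRNA pathway genes in spermatocytes, and is given for this role, a choice made after its values were seen. Probe set 1456951_at read 8.78, 9.57 and 9.49 log2 in WT and 8.88, 9.25 and 9.29 in KO. Replicates numbered 1 were lowest in both genotypes and the groups overlapped. The difference was −0.14 ± 0.21 (95% interval −0.63 to 0.35; limma adjusted p = 0.993), and −0.14 ± 0.16 at its other probe set 1450481_at (limma adjusted p = 0.993). The wider interval goes with the larger spread of its arrays, with an SD of 0.44 in WT and 0.23 in KO. Without WT replicate 1 the difference at 1456951_at was −0.39, the lowest by gene in its list. KO replicate 1, the lowest KO array, was kept in this comparison. At either probe set all KO values then lay below the remaining WT values, where 28.9% of all tested probe sets had no overlap. No probe set of that list passed without this array (limma adjusted p of at least 0.402).

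Sequences before the members' starts were read for letters that MYB proteins bind and for the CCAAT letters of the factor NF-Y, which is known beside A-MYB at such promoters. RefSeq windows of GRCm38.p6, with 250 bases before and 50 after the start, were at hand for 8 of the 10 genes, in 13 windows. A MYB match was TAACNG or CAACNG and a second match was CCAAT, each on both strands, and no match of one kind overlapped one of the other in the windows shown. MYB matches were in 7 of 13 windows (53.8%), of 6 genes, against 49.7% of all 32851 windows of this length. CCAAT was in 4 of 13 (30.8%), of Piwil1, Ddx4, Mael and Mov10l1, against 37.4% of all. Both kinds together were in 3 of 13 (23.1%), against 18.9% of all. These shares were near those of all windows. A match describes letters and not a bound site. The windows of Piwil1 (chr5:128735996-128736295, plus strand), Mael (chr1:166238695-166238994, minus strand) and Mov10l1 (chr15:88982744-88983043, plus strand) held both kinds and are shown for that reason, 5′ to 3′ on the strand of the gene, with the matches in capitals.
Piwil1: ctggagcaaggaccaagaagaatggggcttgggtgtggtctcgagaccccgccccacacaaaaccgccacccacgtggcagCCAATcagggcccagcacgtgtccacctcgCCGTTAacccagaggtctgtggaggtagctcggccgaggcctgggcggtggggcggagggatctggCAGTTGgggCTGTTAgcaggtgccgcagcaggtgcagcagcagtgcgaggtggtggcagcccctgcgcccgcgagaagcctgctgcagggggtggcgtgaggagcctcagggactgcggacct
Mael: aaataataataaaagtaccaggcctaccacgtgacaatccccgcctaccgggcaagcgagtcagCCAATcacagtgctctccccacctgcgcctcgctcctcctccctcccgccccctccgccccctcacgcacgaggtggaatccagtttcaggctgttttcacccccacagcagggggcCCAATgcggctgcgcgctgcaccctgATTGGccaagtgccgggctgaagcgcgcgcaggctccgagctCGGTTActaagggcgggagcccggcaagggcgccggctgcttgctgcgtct
Mov10l1: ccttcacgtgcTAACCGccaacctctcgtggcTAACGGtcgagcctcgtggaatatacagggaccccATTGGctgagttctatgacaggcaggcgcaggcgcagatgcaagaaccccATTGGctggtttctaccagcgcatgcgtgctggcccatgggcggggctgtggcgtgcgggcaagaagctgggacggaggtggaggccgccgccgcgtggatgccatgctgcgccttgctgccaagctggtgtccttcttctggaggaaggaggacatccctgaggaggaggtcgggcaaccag
The Piwil1 window has 3 MYB matches, beginning 139, 73 and 64 bases before the start, and a CCAAT match at 169. That of Mael has 1 MYB match at the base before the start and 3 CCAAT matches, at 186, 69 and 43 bases before it. That of Mov10l1 has MYB matches at 239 and 218 and CCAAT matches at 183 and 133. Whether these letters bear on the levels of the genes was not tested.

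Cell type markers were read on the same arrays, each gene by its tested probe set with the highest level. The 11 tested spermatogonial markers, of the cells in which Piwil2 and Piwil4 are known, had a median difference of −0.0042 log2, and 0 of their 17 probe sets passed (limma). Of 10 spermatocyte markers 5 were higher and 5 lower, with a median of 0.01. With quantile normalization 4 were higher and 6 lower (median −0.016), and without WT replicate 1 it was 2 and 8 (median −0.042). All 12 spermatid markers were higher in KO without a call, with a median of 0.05. Only 6 of 12 were higher with quantile normalization (median 0.0026), and 10 of 12 without WT replicate 1 (median 0.037). The median of the members, 0.04, was −0.0095 with quantile normalization and −0.0017 without WT replicate 1. Of 11 Sertoli markers 9 were lower in KO, with a median of −0.09 and 0 of 19 probe sets called (limma adjusted p of at least 0.908). Their number stayed at 9 of 11 with quantile normalization (median −0.10) and without WT replicate 1 (median −0.11). Sertoli markers averaged 9.24 to 9.25 log2 in the WT arrays and 9.13 to 9.19 in the KO arrays. Without adjustment 2 of their 19 probe sets had a p under 0.05 (limma), where 5.11% of all did. In 2 of 19 the groups did not overlap, where 11% of all had that trait. Leydig, peritubular and macrophage markers had medians of −0.06, −0.05 and 0.08 with 0 calls, the Leydig median being 0.23 without WT replicate 1. All 6 macrophage genes were higher in KO, and 5 of 6 with quantile normalization or without WT replicate 1. Only 2 genes of epididymis and fat were tested, at 0.15 and 1.16 without a call. The part of these cells in the members' differences was not tested.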

How the data were processed

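Whole testes of 3 WT and 3 KO mice were read on 1 Affymetrix array each, per the labels. The authors deposited 1 table of normalized log2 values with 45101 probe sets. GCOS 1.4 is named in the submitters' processing notes, while no source used here gives the background correction, probe summary or normalization. That the values are log2 follows from their range (2.61 to 15.00, array medians 6.62 to 6.65). If arrays were equalised, a shift of all transcripts would not be seen, and low values hold mostly background. Depth has no meaning for arrays, whose number limits the precision.

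Control probe sets (64) were dropped, and the upper 60% of the rest by mean over 6 arrays (27022, lowest mean 6.02) were tested with limma 3.58.1 in R 4.3.3 (lmFit, eBayes with an intensity trend, two-sided, Benjamini-Hochberg over all of them, threshold 0.05). Gene symbols came from the platform annotation and were brought up to date by gene id from RefSeq, assembly GRCm38.p6 (99.4% of probe sets with 1 gene matched). For gene counts the tested probe set with the highest mean stood for a gene. Members and lists were chosen with earlier results of these data known. Every member was named; of the wider lists, the 3 genes with the smallest p. Mybl1 was added for its role after its values were seen. The fit was tested on simulated data. Figures used matplotlib 3.10.9. Alternatives covered the filter, normalization, replicate block, moderation, array weights and single arrays.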

Additional observations from a re-analysis of the deposited data

How the results depend on the processing

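No member passed under any of the 16 other settings, whose adjusted p for a member was at least 0.381 (limma). Without adjustment 1 of 8, Mov10l1, had a p under 0.05 with array weights and without WT replicate 1 (limma). The share of all probe sets at these settings is not given here. The 2 wider lists had 0 calls under every setting. Their lowest adjusted p was 0.085, at Akap1 1449019_at with array weights, and 0.212 without WT replicate 1 (limma). The direction changed in 15 of 128 comparisons, over 6 of the 8 genes, while Tdrd5 and Mov10l1 kept theirs. Many of the 128 could not change, since the settings of filter, replicate block and moderation leave each difference as it was. Only scaling, array weights and left-out arrays could change a direction. With quantile normalization Piwil1 stood at −0.022 and Mael at −0.020. With array weights Ddx4 was at −0.0046, Tdrd7 at −0.011 and Mael at −0.0081. Leaving out 1 array at a time gave from −0.028 to 0.025 for Piwil1, −0.042 to 0.031 for Piwil2, −0.040 to 0.083 for Ddx4, −0.18 to 0.028 for Tdrd1, −0.011 to 0.10 for Tdrd7, 0.030 to 0.087 for Tdrd5, 0.020 to 0.14 for Mov10l1 and −0.031 to 0.071 for Mael. Without WT replicates 1 and 2 together, which leaves 1 WT array assumed to vary like the others, Ddx4 was at −0.020, Tdrd7 at −0.021 and Mael at −0.032. The median over the member genes moved from 0.036 to −0.0095 with quantile normalization, −0.0028 with array weights and −0.016 without both arrays, and ran from −0.0017 to 0.043 without single arrays; the cause was not tested. Over all probe sets 11 were called, 7 with the upper 40% by level, 46 with array weights, 0 without moderation, 4 without both WT arrays and from 2 (without KO replicate 3) to 12 without single arrays. With the replicate number as a block 0 of the 8 members and 9 probe sets in all were called. Deviations of same-numbered arrays correlated at 0.22, −0.02 and 0.10. Of the 3 WT arrays, 2 correlated best with the KO array of their own number. These values do not settle whether same-numbered mice belong together, and the numbers were not taken as pairs.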
